A study of Mus musculus with 18 samples.

Results

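Galnt11 and 4 related genes of mouse osteosarcoma cells, Galnt1, Galnt2, Galnt7 and Galnt10, are described here across 18 RNA libraries. They encode polypeptide N-acetylgalactosaminyltransferases (GalNAc transferases). The members were taken by gene symbol, and all 5 were found among the 19862 genes of the deposited table. Galnt11 was chosen on its change in Light RNA, 1 of the 3 kinds of RNA sequenced. Its Light values are therefore a description without a test, as is every comparison of it that uses a Light library. All 5 members passed the filter of a value above 0 in at least 3 libraries, which left 17515 genes for testing.

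The cells are lines grown from bone tumours of p53 and Rb conditional knockout mice of mixed background, with an age of postnatal day 299 in the labels. They carry floxed Prmt1 alleles and stably express CreER, a recombinase switched on by tamoxifen. Vehicle (ethanol) gave the control cells, whose genotype is labelled wild type, and 4OHT, a tamoxifen, gave the conditional knockout cells, labelled Prmt1-/-. Both kinds of cell thus share the tumour background, the floxed alleles and CreER, and no group here received 4OHT without floxed alleles. After cycloheximide, cleared lysate was kept as Total RNA or run on a sucrose gradient and pooled as Light (messages with under 3 ribosomes) and Heavy (over 3 ribosomes). Each of the 6 groups has n = 3 libraries. Values are counts per 1000000 reads (CPM), so they are shares of a library and not rates of translation. Nothing states that the libraries of a group are separate cultures, and the fractions may come from the same lysates. The p-values then measure only the spread between these libraries, which may be technical.

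GalNAc transferases of this family sit in the Golgi and start mucin-type O-glycosylation by moving GalNAc from UDP-GalNAc onto serine or threonine of a passing protein. Galnt1 and Galnt2 are broadly expressed enzymes that can act on bare peptides. Galnt7 and Galnt10 prefer peptides that already carry a GalNAc. Galnt11 is known for glycosylating the linkers between the ligand-binding repeats of lipoprotein receptors such as Lrp1 and Lrp2, and Notch1 is also described as a substrate.

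Galnt11 (gene 231050) lies on chromosome 5 at 25222872 to 25265918 of mm10, on the plus strand, and its longest coding sequence has 1824 nt. RefSeq gives the gene 2 starts. The stretch before the upstream one, where the gene begins, is shown as a description. Its part in the lower Galnt11 level of knockout cells in Total and Heavy RNA was not tested. The 250 bases at chr5:25222622-25222871 (RefSeq, GRCm38.p6, plus strand) hold 2 matches to GGGCGG and 1 to TGACGTCA, which the capitals mark.
Galnt11 promoter: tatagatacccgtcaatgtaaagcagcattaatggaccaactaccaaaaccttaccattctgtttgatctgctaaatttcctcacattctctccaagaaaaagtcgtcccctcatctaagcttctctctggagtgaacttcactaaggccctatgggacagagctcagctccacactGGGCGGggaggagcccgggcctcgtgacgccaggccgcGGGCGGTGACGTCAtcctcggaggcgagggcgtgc
All motifs were searched on both strands, and the downstream GGGCGG match and the TGACGTCA match touch without overlap. The latter starts 29 bases before the annotated start. The window of the other start (25246123 to 25246372) held 0 matches to either. The E-box CACGTG, the TATA box TATAAA and the interferon-stimulated response element were searched too and had 0 matches in both Galnt11 windows, beside 6.02%, 12.4% and 2.97% of all windows that hold them. TGACGTCA, the motif bound by CREB-type factors, was in 1.55% of 32817 promoter windows of the same length. GGGCGG, the motif bound by Sp1-type factors, was in 32.7% of them. Of 16 windows of 11 genes of the family, 1 held TGACGTCA, 6 held GGGCGG, 1 held CACGTG, 1 held TATAAA and 0 held the interferon element. These windows include those of Galnt11, whose upstream window is the 1 with TGACGTCA. The members Galnt1 and Galnt2 had no window among them. A match is a description of the letters and does not show binding.

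The libraries hold 32.3 to 57.9 M reads (M for 1000000). Prmt1 was lower in knockout cells in Total (273 ± 14.9 against 166 ± 16.3 CPM) and Heavy RNA (387 ± 22.6 against 110.3 ± 41.6 CPM), with limma adjusted p = 0.0202 and 7.87e-06. Leaving out control 2, control 3 or knockout 1 brought the Prmt1 difference in Total RNA to an adjusted p of 0.0562 to 0.0809. Its Light values did not pass the test (239 ± 19.0 against 209.9 ± 38.1 CPM, log2 change -0.20, SE 0.21, limma adjusted p = 0.506). The knockout libraries numbered 1 lay farthest from their group means in all 3 kinds of RNA. The 8 osteoblast and mesenchymal markers, with Col1a1 and Runx2 among them, were above 0 in every library. They summed to 4337 to 6128 CPM in control and 6032 to 7867 CPM in knockout libraries in Total RNA, to 2331 to 2804 and 4561 to 7495 CPM in Light RNA, and to 4125 to 5580 and 6437 to 13182 CPM in Heavy RNA, without overlap in the latter 2. Summed markers of other cells were higher in the knockout libraries, at 7.47 to 17.8 against 3.99 to 5.85 CPM for 6 macrophage and blood genes and 5.90 to 13.1 against 0.634 to 1.38 CPM for 5 epithelial genes. For 4 endothelial genes they were 0.290 to 1.10 against 0.0502 to 0.244 CPM. The defining markers of these cells were low and reached higher values in knockout libraries. Ptprc was at 0.0204 CPM or less in control libraries and 0.0721 or less in knockout libraries, and Epcam at 0.0502 or less and 0.144 or less. Pecam1 was at 0 to 0.0818 CPM in control and 0.0528 to 0.367 CPM in knockout libraries. Cdh5 was at 0 in 6 of 9 control libraries and at 0.0197 to 0.205 CPM in all 9 knockout libraries. The part of these markers in the results on the members was not tested.

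Galnt11 was low in knockout cells in all 3 kinds of RNA. Its Total level was 12.97, 13.7 and 11.8 CPM in the control libraries numbered 1 to 3 (controls below), and 1.47, 1.49 and 1.83 CPM in those of knockout cells (knockouts below). The highest knockout library thus lay far below the lowest control library. The mean fell from 12.8 ± 0.968 (SD, n = 3) to 1.60 ± 0.206 CPM, 8.03 times lower, on 386 to 714 reads per control library and 50 to 75 reads per knockout library. On the log2(CPM + 1) scale the change was -2.41 (SE 0.10, limma adjusted p = 5.01e-10), and 10 of the tested genes had a lower change. That scale understates the change of genes of low level, and each SE pools the spread of all 6 groups. The Light groups are among them, so the Galnt11 tests in Total and Heavy RNA are not wholly free of the choice.

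In Heavy RNA the gene was at 4.95, 5.21 and 5.13 CPM in controls and at 0.717, 0.739 and 0.899 CPM in knockouts. The groups were again far apart. The mean fell from 5.10 ± 0.134 to 0.785 ± 0.0994 CPM, which is -1.77 on the log2 scale (SE 0.10, limma adjusted p = 1.10e-08), with 31 genes lower. The knockout libraries held 28 or 29 reads each, so counting error weighs most in this group. The Galnt11 call stood in all 16 alternative analyses of Total (adjusted p at most 0.000144) and all 16 of Heavy RNA (at most 0.00117). Its size moved among them, from -3.00 to -2.37 in Total and from -2.69 to -1.75 in Heavy RNA.

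The Light values, which led to its choice, were 17.2, 18.5 and 17.0 CPM in controls and 1.34, 1.25 and 1.62 CPM in knockouts. Their means were 17.6 ± 0.814 and 1.40 ± 0.190 CPM, a log2 difference of -2.95 with 4 genes lower. The order of the 6 group means was Light control, Total control, Heavy control, Total knockout, Light knockout and Heavy knockout. Total and Light knockout libraries overlapped, and no other neighbours in this order did. Of its 6853 nt of merged exon, 306 nt are shared with E130116L18Rik, a gene on the opposite strand. No source used here gives the strand setting of the read counting, and without strand the reads of that stretch cannot be told apart.

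**Figure D1:**
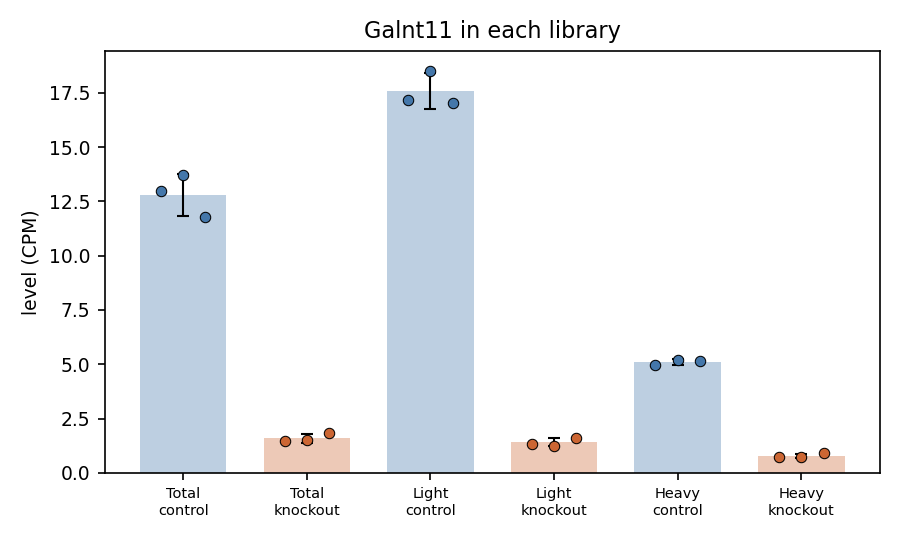
Galnt11 level in CPM (y axis) in each of the 18 libraries, grouped by RNA and genotype, with bars at the group means and error bars of 1 SD (n = 3). The 9 knockout libraries lie between 0.717 and 1.83 CPM, below all 9 control libraries, which lie between 4.95 and 18.5 CPM.

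Of the members other than Galnt11, 3 of 4 were called lower in Total, 1 of 4 in Light and 3 of 4 in Heavy RNA, and 0 were called higher. Over all tested genes, 10.3% were called lower in Total, 12.7% in Light and 10.4% in Heavy RNA, and 16.1%, 26.8% and 18.5% were called higher. The members were chosen with results of these data known, so their counts are a description. Without the 3 knockout libraries numbered 1 the counts of members called lower were the same. Of all called genes, 60.9% (Total), 67.9% (Light) and 64.1% (Heavy) were higher, against 48.8%, 47.3% and 48.9% after quantile normalization. Median-of-ratios scaling gave 53.7%, 46.2% and 44.6%. The median change of genes of at least 1 CPM in Light was 0.14 as deposited, -0.02 after quantile normalization and -0.06 after median-of-ratios scaling, so directions near 0 depend on the scaling.

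Galnt10 (gene 171212, chromosome 11, 57645442 to 57787514, plus strand), an enzyme that acts on peptides already glycosylated, fell in every kind of RNA. In Total RNA it was at 101, 113 and 120.1 CPM in controls and 55.1, 71.9 and 71.1 CPM in knockouts. In Light RNA the values were 179, 173 and 157 CPM against 82.8, 113 and 108 CPM, and in Heavy RNA 139, 141 and 129 CPM against 59.4, 87.9 and 101 CPM. The lowest knockout value was in the library numbered 1 each time, and no groups overlapped. The log2 change was -0.75 (SE 0.17) in all 3, with limma adjusted p = 0.00345 in Total, 0.00228 in Light and 0.00322 in Heavy RNA. With only the 6 Heavy libraries in the fit, the Heavy call was lost (adjusted p = 0.0512, within a range up to that value over 16 alternatives).

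Galnt7 (gene 108150, chromosome 8, 57523825 to 57653055, minus strand), the other member that prefers glycosylated peptides, fell in Total and Heavy but not detectably in Light RNA. Its Total values were 20.6, 16.8 and 13.3 CPM in controls and 7.74, 9.49 and 9.15 CPM in knockouts. On the log2 scale this was -0.86 (SE 0.19, limma adjusted p = 0.00274). The Heavy values were 9.02, 15.1 and 13.9 CPM against 7.42, 8.07 and 6.51 CPM (log2 change -0.69, SE 0.19, adjusted p = 0.0109). Control and knockout libraries did not overlap in either, but the Heavy control library numbered 1 came close to the knockout range. The Heavy call was lost without Heavy control 2 (adjusted p = 0.0607) and with only the Heavy libraries in the fit (0.0652). In Light RNA the values were 4.42, 5.62 and 6.96 CPM against 6.07, 5.57 and 5.27 CPM, which overlapped, with a log2 change of 0.01 (SE 0.19, adjusted p = 0.983). Galnt7 shares 98 nt of exon with AW046200 on the opposite strand.

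The difference between the Light and the Total change of Galnt7 was 0.87 (SE 0.26, limma adjusted p = 0.101), so the 2 changes were not shown to differ. For that difference 0% of the tested genes were called, with 2851 genes at an unadjusted p under 0.05. Limma-voom on the recovered reads called 0 as well, with 2860 such genes.

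Galnt2 (gene 108148, chromosome 8, 124231394 to 124345722, plus strand), a broadly expressed initiating enzyme, had the highest level per length of the family. Its Total values were 159, 164 and 171 CPM in controls and 123, 144 and 132 CPM in knockouts, without overlap (log2 change -0.31, SE 0.11, limma adjusted p = 0.0430). That call did not pass in 7 of 16 alternatives, among them those without any 1 of the 3 control libraries (adjusted p up to 0.126), without knockout 1 (0.153) or without knockout 3 (0.0935). The Heavy values were 220.4, 204 and 211 CPM against 138, 175 and 179 CPM (log2 change -0.37, SE 0.11, adjusted p = 0.0156). The Heavy call was lost without control 1 (0.0597), without knockout 1 (-0.25, 0.0507) and with only the Heavy libraries in the fit (0.113). In Light RNA the values were 199.5, 183 and 189.8 CPM against 153, 179 and 179 CPM, which did not overlap but did not pass (-0.16, SE 0.11, adjusted p = 0.251). With median-of-ratios scaling the Light change was -0.39 (adjusted p = 0.0185). Galnt2 shares most of its 4282 nt of merged exon with Gm20388 on the same strand, and a small part with a gene on the opposite strand. Reads of the shared exon were not separated. The Galnt2 levels and their rank in the family may therefore include reads of Gm20388.

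Galnt1 (gene 14423, chromosome 18, 24205321 to 24286816, plus strand), another broadly expressed initiating enzyme, was not called in any kind of RNA. In Total RNA it was at 100.1, 89.5 and 79.0 CPM in controls and 116, 116 and 101 CPM in knockouts, just without overlap (log2 change 0.31, SE 0.17, limma adjusted p = 0.210). Light values were 73.7, 90.3 and 90.3 CPM against 88.9, 97.5 and 104 CPM (log2 change 0.19, SE 0.17, adjusted p = 0.412). Heavy values were 49.0, 75.2 and 63.5 CPM against 53.8, 77.6 and 85.8 CPM (log2 change 0.20, SE 0.17, adjusted p = 0.437). The groups overlapped in both fractions. The Galnt1 Light difference turned to -0.03 with median-of-ratios scaling. These misses do not show that the level of Galnt1 was the same.

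**Figure D2:**
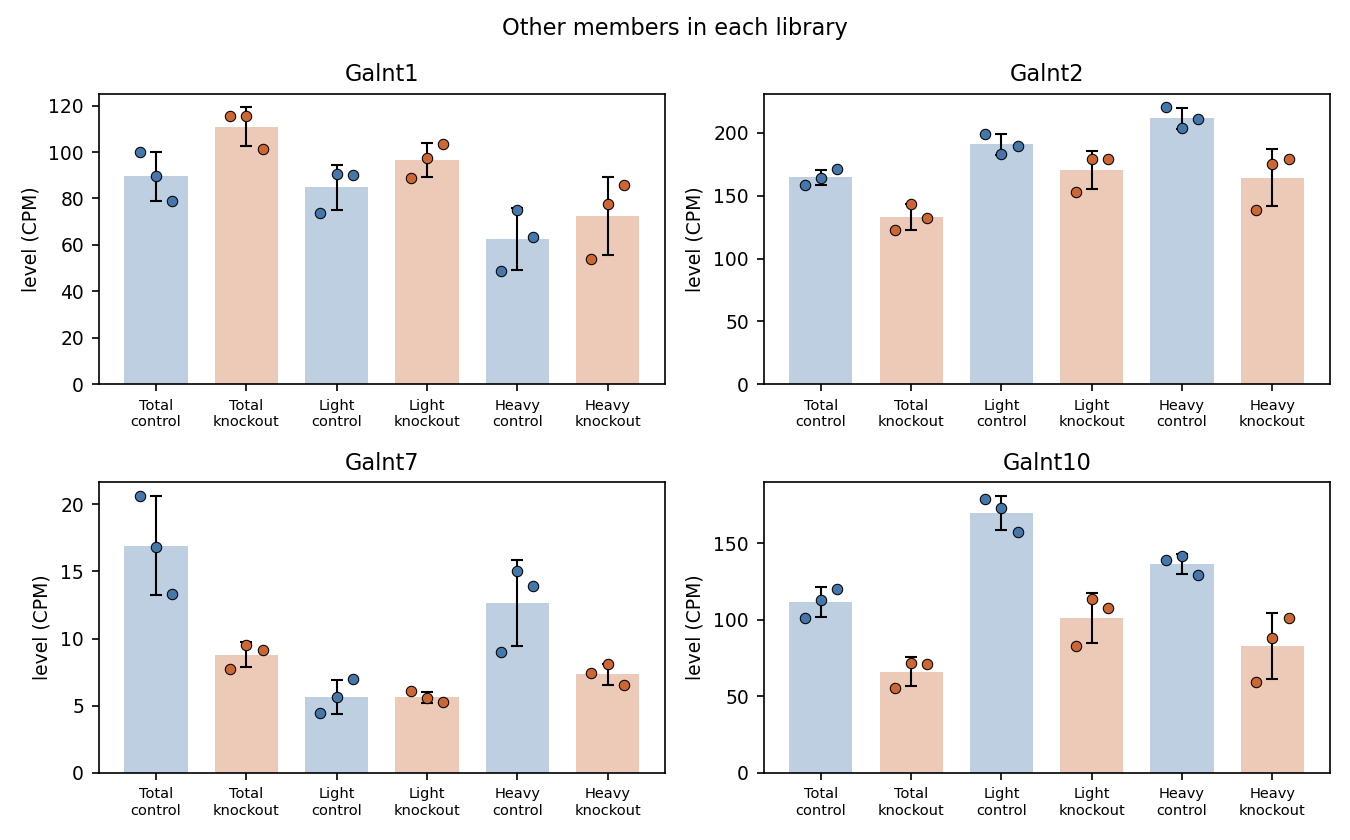
Levels of Galnt1, Galnt2, Galnt7 and Galnt10 in CPM (y axis, from 0) in each library, with bars at the group means and error bars of 1 SD (n = 3). Galnt10 is lower in knockout libraries in all 3 kinds of RNA, and the Galnt7 groups overlap in Light RNA.

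**Figure D3:**
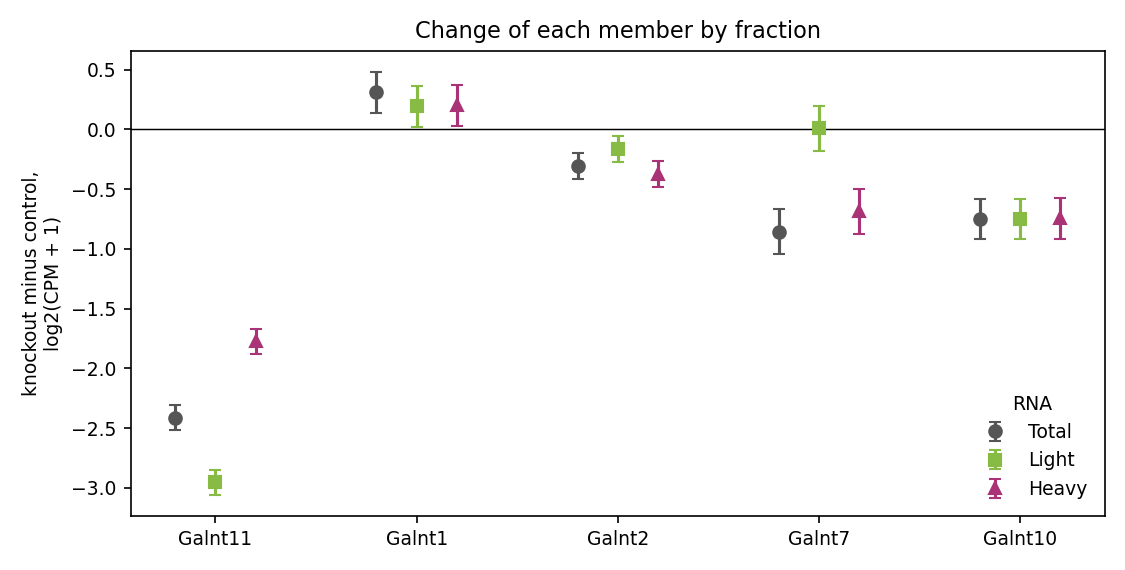
Change of each member between knockout and control cells on the log2(CPM + 1) scale (y axis) in Total, Light and Heavy RNA, with error bars of 1 SE from the fit over all libraries. Galnt11 lies at -2.41, -2.95 and -1.77, and the other members lie between -0.86 and 0.31.

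Where messages lay in the gradient of control cells differed between the members. Galnt11 made up less of Heavy than of Light RNA, and Galnt7 made up more. The Heavy level of Galnt11 divided by its Light level, for libraries of the same number, was 0.288, 0.281 and 0.301 in control cells and 0.535, 0.590 and 0.556 in knockout cells. The knockout ratios were thus all higher, with means of 0.290 ± 0.0102 and 0.560 ± 0.0274. As a description, the difference between Heavy and Light on the log2(CPM + 1) scale was -1.61 in control and -0.43 in knockout cells. The Heavy change of Galnt11 was 1.18 higher on that scale than its Light change, and 0.94 to 1.25 higher over 24 alternatives. The added 1 shrinks the difference most at the low knockout levels, and so widens the gap between the genotypes. In CPM the mean was 12.5 times lower in knockout cells in Light RNA and 6.49 times lower in Heavy RNA.

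Against Total RNA, which the choice did not use directly, Galnt11 was lower in Heavy RNA of control cells by a log2 difference of -1.18 (SE 0.10, limma adjusted p = 2.49e-07). The ratio of Heavy to Total was 0.381, 0.380 and 0.436 in control cells and 0.489, 0.496 and 0.490 in knockout cells, for libraries of the same number, which were not shown to be paired between Heavy and Total RNA. The call stood in all 17 alternatives, but quantile normalization brought the control difference to -0.63. On the log2(CPM + 1) scale, the change in Heavy RNA was 0.64 less negative than that in Total RNA (SE 0.14). The size of this difference was 0.31 to 0.70 over 23 alternatives. It did not pass (limma adjusted p = 0.202, 0.0895 to 0.961 over the same alternatives). Of all tested genes 0.0114% were called for this difference. The 1 added to CPM widens it at these low levels. In CPM the Galnt11 mean was 8.03 times lower in knockout cells in Total and 6.49 times lower in Heavy RNA.

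Between Heavy and Light RNA of control cells, Galnt7 lay the other way from Galnt11. Its Heavy to Light ratio was 2.04, 2.68 and 2.00 in control libraries, all above 1, a log2 difference of 1.02 (SE 0.19, limma adjusted p = 0.000185) that stood in all 18 alternatives. Against Total RNA it was at 12.7 ± 3.21 in Heavy and 16.9 ± 3.66 CPM in Total control libraries, which overlapped (log2 difference -0.40, SE 0.19, adjusted p = 0.0968). In knockout cells the ratio was 1.22, 1.45 and 1.24, all below the control ratios, with a log2 difference of 0.33 (SE 0.19, adjusted p = 0.179). With equal numbers as a block and only the Heavy and Light libraries, the latter passed (adjusted p = 0.0415). The Heavy and the Light change of Galnt7 differed by -0.70 (SE 0.26, adjusted p = 0.192), and 2.87% of the tested genes were called for that difference.

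Galnt1 was lower in Heavy than in Light RNA, with ratios of 0.665, 0.833 and 0.703 in control libraries (log2 difference -0.45, SE 0.17, limma adjusted p = 0.0389). In knockout libraries they were 0.605, 0.796 and 0.829 (-0.44, SE 0.17, adjusted p = 0.0497). The control call did not pass in 7 of 18 alternatives. These included those without Heavy control 1 (0.207) or 3 (0.0678) and without Light control 2 (0.117) or 3 (0.115). The knockout call did not pass in 11 of 18, among them those without Heavy knockout 1 (0.260) or 2 (0.0521) and without any 1 of the Light knockout libraries (0.0507 to 0.139). Galnt10 had ratios of 0.778, 0.816 and 0.821 in control cells (-0.31, SE 0.17, adjusted p = 0.145) and 0.718, 0.775 and 0.939 in knockout cells (-0.31, SE 0.17, adjusted p = 0.159). With equal numbers as a block, both Galnt10 differences passed (adjusted p = 0.0242 in control and 0.0291 in knockout cells). Galnt2 had ratios of 1.10, 1.11 and 1.11 in control cells and 0.903, 0.979 and 1.00 in knockout cells, and neither difference passed (adjusted p = 0.287 and 0.714).

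The calls of the 4 members other than Galnt11 between Heavy and Light RNA, in the fit without a block, were as follows. Control cells had 1 called higher and 1 called lower in Heavy RNA, and knockout cells 0 and 1. Over all tested genes the shares were 23.6% higher and 27.1% lower in control cells, and 16.8% and 26.8% in knockout cells. For 4 genes, the counts lie near these shares. In control cells Galnt2 was higher in Heavy than in Total RNA (0.36, SE 0.11, limma adjusted p = 0.0115; 0.69 with median-of-ratios scaling) and Galnt1 was lower (-0.53, SE 0.17, adjusted p = 0.0197). For that comparison 12.8% of genes were called higher and 31.3% lower. The Galnt1 call was lost without Heavy control 1 (0.121), without Total control 1 (0.0858) and with either other scaling. The share of calls that were higher moved from 29.1% to 56.1% for Heavy against Total in control cells after quantile normalization, and to 51.0% after median-of-ratios scaling. For Heavy against Light in knockout cells it moved from 38.6% to 55.8% and 48.8%.

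**Figure D4:**
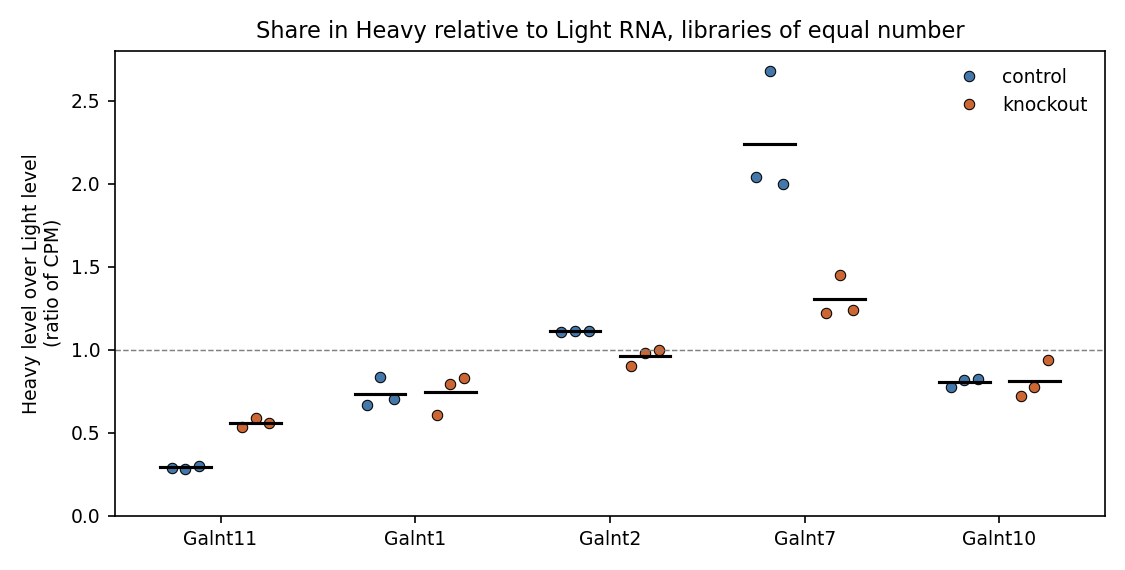
Level in Heavy divided by level in Light RNA (ratio of CPM, y axis) for libraries of equal number, with lines at the means of 3 ratios. The Galnt11 ratios lie at 0.281 to 0.301 (control) and 0.535 to 0.590 (knockout), and the Galnt7 ratios 2.00 to 2.68 and 1.22 to 1.45.

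Levels of different genes were compared per kilobase of coding sequence. In Total RNA of control cells, Galnt2 had 96.3 ± 3.59, Galnt10 61.5 ± 5.37, Galnt1 53.4 ± 6.29, Galnt7 8.58 ± 1.86 and Galnt11 7.03 ± 0.531 CPM per kb. Galnt10 and Galnt1 overlapped, as did Galnt7 and Galnt11. Per kb of merged exon the same libraries gave means of 3.22 CPM for Galnt7 and 1.87 CPM for Galnt11, without overlap. In Total RNA of knockout cells the order was Galnt2 (77.7 ± 6.04), Galnt1 (66.1 ± 5.00), Galnt10 (36.5 ± 5.23), Galnt7 (4.46 ± 0.471) and Galnt11 (0.875 ± 0.113 CPM per kb). In these libraries none of the neighbours overlapped.

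Galnt11 was a small part of the family's messages in either state. Its share of the summed level of the 16 family genes in the table, per kb, was 2.80% ± 0.184 in Total RNA of control and 0.423% ± 0.0643 in that of knockout cells. In Light RNA the shares were 3.29% and 0.319%, and in Heavy RNA 1.02% and 0.201%. The summed level itself was 250.5 ± 2.82 in control and 207 ± 12.5 CPM per kb in knockout Total libraries, 293 ± 4.88 and 242 ± 21.3 in Light, and 274 ± 8.27 and 216 ± 34.7 in Heavy. In Total RNA the Galnt10 share was 24.6% ± 2.19 against 17.6% ± 1.98, and the Galnt1 share 21.3% ± 2.49 against 31.9% ± 2.71. The Galnt2 share was 38.5% ± 1.61 against 37.4% ± 0.869. Galnt2 shares most of its merged exon with Gm20388. Reads of that stretch were not separated, which bears on the summed level and on every share of it.

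**Figure D5:**
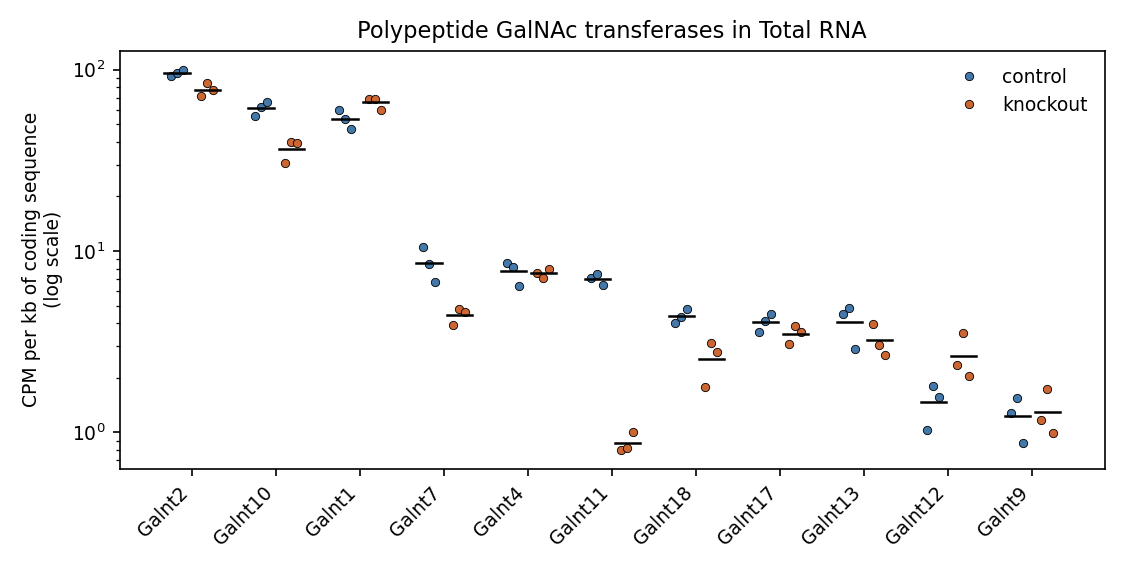
Level of the 11 family genes that averaged 1 CPM or more in each Total library, in CPM per kb of coding sequence (y axis, log scale), with lines at the means of 3 libraries. Galnt2, Galnt10 and Galnt1 lie above the rest, and the 3 Galnt11 knockout libraries lie near 1.

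The 11 other family genes in the table, of 14 listed, moved both ways. Galnt5, Galnt14 and Galntl5 were not analysed here. In Total RNA 2 of the 11 rose and 1 fell, in Light RNA 2 and 1, and in Heavy RNA 2 and 3. Among all tested genes 16.1%, 26.8% and 18.5% rose and 10.3%, 12.7% and 10.4% fell, and the counts of the family that rose lie near these shares or below. The median log2 changes were -0.02, 0.02 and 0.07, beside 0.01, 0.05 and 0.02 over all tested genes. Without the knockout libraries numbered 1 the counts were 2 and 0 in Total, 1 and 1 in Light, and 2 and 1 in Heavy RNA.

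Galnt15 was called higher in all 3, and in all 15 alternatives of each, at a low level. Its Total values were 0.0532, 0.307 and 0.214 CPM in controls and 1.61, 0.649 and 1.10 CPM in knockouts (log2 change 0.81, SE 0.19, limma adjusted p = 0.00473). The control values rest on 2 to 16 reads. Galnt12 was at 1.78, 3.11 and 2.72 CPM in Total control and 4.05, 6.08 and 3.55 CPM in Total knockout libraries (0.65, SE 0.18, adjusted p = 0.0143). That call was lost without Total control 1 (0.0813), without Total knockout 2 (0.0825), with only the Total libraries in the fit (0.0622) and after quantile normalization (0.120). It was called in Heavy RNA too (0.55, adjusted p = 0.0310), where 7 of 16 alternatives did not pass, among them those without Heavy control 2 or 3 and without Heavy knockout 2 or 3 (0.0584 to 0.121).

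Galnt18, with 7.47, 8.06 and 8.97 CPM in Total control and 3.31, 5.79 and 5.16 CPM in Total knockout libraries, fell (log2 change -0.69, SE 0.21, limma adjusted p = 0.0244). In Total RNA it did not pass with control 2 (0.0584), control 3 (0.0824) or knockout 1 (0.131) left out. It fell in Heavy RNA as well (-0.61, SE 0.21, adjusted p = 0.0431), a call that did not pass in 9 of 16 alternatives, among them those without any 1 of the control libraries, knockout 1 or knockout 3 (0.0680 to 0.197). Galnt17 fell in Heavy RNA from 12.7 ± 0.251 to 9.80 ± 0.410 CPM (-0.34, SE 0.10, adjusted p = 0.0188), which was lost without Heavy control 1 (0.0553) or 3 (0.0524). Galntl6 fell in Light RNA from 1.08 ± 0.256 to 0.465 ± 0.0947 CPM (-0.50, SE 0.13, adjusted p = 0.00691). Galnt4 rose in Light RNA from 9.04 ± 0.412 to 12.3 ± 1.50 CPM (0.40, SE 0.15, adjusted p = 0.0401), lost in 9 of 16 alternatives, both other scalings and 5 of the 6 single libraries left out among them, and its exons overlap those of Poc1b. The third call in Heavy RNA, Galnt3, rests on 1 to 3 reads per control library and 0 in each knockout library, so no fold is given.

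Genes around the family were followed in 6 lists, chosen with earlier results of these data known. The counts of each are to be read beside all tested genes, of which 16.1% rose and 10.3% fell in Total, 26.8% and 12.7% in Light, and 18.5% and 10.4% in Heavy RNA. Enzymes that extend or cap the first GalNAc had 4 of 12 tested genes higher and 1 lower in Total, 6 and 1 in Light, and 6 and 1 in Heavy RNA. Their median log2 changes were 0.23, 0.33 and 0.24, beside 0.01, 0.05 and 0.02 over all genes. B3gnt3, which adds GlcNAc to the core structure, rose from 1.97 ± 0.171 to 5.48 ± 1.03 CPM in Total RNA (log2 change 1.11, SE 0.17, limma adjusted p = 0.000160). The sialyltransferase St3gal2 rose from 156 ± 19.1 to 231 ± 36.3 CPM there (0.56, SE 0.15, adjusted p = 0.0105), a call lost without control 1 (0.0522) or knockout 1 (0.0616). Gcnt4, a branching enzyme, fell from 5.65 ± 0.979 to 1.90 ± 0.741 CPM (-1.22, SE 0.19, adjusted p = 0.000166). C1galt1, the enzyme that makes the core 1 structure, was at 5.26 ± 1.81 and 3.25 ± 0.657 CPM in Total RNA and did not pass (-0.53, SE 0.22, adjusted p = 0.0895). Its chaperone C1galt1c1 rose in Light RNA (0.44, SE 0.16, adjusted p = 0.0339), which did not pass without Light control 1 (0.164), control 2 (0.0791) or knockout 1 (0.151), or with either other scaling (0.186 and 0.256).

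Genes that supply the sugar donors UDP-GalNAc and UDP-galactose had 3 of 10 higher and 0 lower in Total, 5 and 1 in Light, and 2 and 1 in Heavy RNA, where 18.5% of all genes rose and the list's share is near that. The median log2 changes were 0.08, 0.34 and 0.19. Uap1l1, a relative of the enzyme that makes the UDP-sugar, rose from 28.8 ± 3.95 to 112 ± 17.9 CPM in Total RNA (log2 change 1.93, SE 0.21, limma adjusted p = 6.39e-06). Gfpt2, an entry enzyme of the hexosamine pathway, rose from 2.79 ± 0.370 to 5.78 ± 0.830 CPM (0.84, SE 0.19, adjusted p = 0.00302). The lower calls were Gnpnat1 in Light and Galk1 in Heavy RNA, both named after their values were seen.

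The list of Lrp1 and its relatives with Notch1, 6 genes, had 3 higher and 1 lower in Total and in Light RNA, and 4 and 1 in Heavy RNA, where 16.1%, 26.8% and 18.5% of all genes rose. Their median log2 changes were 0.63, 0.75 and 1.26. Lrp1, a large endocytic receptor, rose from 151 ± 23.3 to 303 ± 24.1 CPM in Total RNA (log2 change 1.01, SE 0.17, limma adjusted p = 0.000271), and the receptor Lrp2 (megalin) from 24.3 ± 1.63 to 47.8 ± 4.29 CPM. Vldlr rose from 3.49 ± 0.296 to 14.2 ± 5.98 CPM. Lrp8 was the member that fell, from 51.1 ± 4.12 to 29.5 ± 4.13 CPM in Total RNA (log2 change -0.78, SE 0.15, adjusted p = 0.00128), and its call stood in all 16 alternatives.

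Notch1 was at 4.12, 5.85 and 4.64 CPM in Total control and 4.95, 7.28 and 6.58 CPM in Total knockout libraries, which overlapped (log2 change 0.31, SE 0.18, limma adjusted p = 0.241). Its Heavy level was 2.89, 3.70 and 3.66 CPM in control and 10.2, 5.99 and 6.57 CPM in knockouts and rose (0.93, SE 0.18, adjusted p = 0.000965). Without the knockout libraries numbered 1, 4 of the 6 rose and 1 fell in each kind of RNA.

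Other carriers of mucin-type O-glycans had 4 of 10 tested genes higher in Total, 5 in Light and 3 in Heavy RNA, and 0 lower, beside 16.1%, 26.8% and 18.5% of all genes higher. The median log2 changes were 0.27, 0.49 and 0.27. Pdpn (podoplanin) rose from 15.8 ± 0.896 to 46.3 ± 5.29 CPM in Total RNA (log2 change 1.48, SE 0.12, limma adjusted p = 1.97e-07). Dag1 (dystroglycan) rose from 79.0 ± 5.15 to 129 ± 8.92 CPM (0.70, SE 0.17, adjusted p = 0.00472). Spp1 (osteopontin), which is also on the osteoblast marker list, rose from 22.6 ± 6.24 to 39.8 ± 7.19 CPM (0.81, SE 0.25, adjusted p = 0.0241), a call lost without control 2, control 3, knockout 1 or knockout 2 (0.0685 to 0.114).

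Transferases that add GalNAc to other acceptors moved both ways, with 2 of 13 higher and 4 lower in Total, 3 and 3 in Light, and 3 and 2 in Heavy RNA. Of all genes 16.1%, 26.8% and 18.5% were higher and 10.3%, 12.7% and 10.4% lower, and the list's counts of higher genes lie near these shares. Chpf2 of chondroitin synthesis rose from 72.8 ± 7.497 to 124 ± 12.8 CPM in Total RNA (log2 change 0.77, SE 0.12, limma adjusted p = 0.000228). Its relative Chpf fell from 159.9 ± 20.9 to 118 ± 9.45 CPM (-0.43, SE 0.11, adjusted p = 0.00679). Of 12 genes for other kinds of protein O-glycosylation, 1 rose and 3 fell in Total, 3 and 4 in Light, and 2 and 3 in Heavy RNA. Without the knockout libraries numbered 1, 1 of the 12 rose in Heavy RNA. Lfng, which extends O-fucose on Notch proteins, fell in Total RNA from 25.9 ± 1.13 to 17.0 ± 3.13 CPM (-0.59, SE 0.13, adjusted p = 0.00298). Pomgnt2, an enzyme of O-mannose glycans, rose from 6.48 ± 0.530 to 11.2 ± 0.492 CPM (0.71, SE 0.13, adjusted p = 0.000502).

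Over the 18 libraries and 9650 genes that averaged 5 CPM or more, the genes most like Galnt11 by Pearson correlation were Gask1b (0.98), Cxcl5 (0.98), Ttll5 (0.97), Dnajb14 (0.97) and Tbccd1 (0.97). The points share the 6 groups and their depth, so the correlations are a description. Gask1b encodes a Golgi-associated kinase-like protein and was at 139 ± 18.8 CPM in Total control and 34.7 ± 2.88 CPM in Total knockout libraries. Spearman correlation gave 5 other genes, led by Gdap2 (0.96), and a minimum of 1 CPM put Mpv17l (0.98) first.

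The nearest tested gene, Kmt2c, a histone methyltransferase gene, lies 5877 nt beyond the end of Galnt11. Its Total values did not pass, at 6.19, 4.99 and 4.49 CPM in control and 6.45, 4.90 and 5.31 CPM in knockouts (log2 change 0.08, SE 0.21, limma adjusted p = 0.828). It rose in Heavy RNA, from 1.92 ± 0.559 to 4.11 ± 1.03 CPM (0.81, SE 0.21, adjusted p = 0.00780). On the other side Prkag2, an AMPK subunit gene that lies 116590 nt before Galnt11, was at 16.0 ± 0.707 and 13.5 ± 1.23 CPM in Total RNA (-0.24, SE 0.15, adjusted p = 0.264). Neither passed in Light RNA (Kmt2c 0.30, adjusted p = 0.278; Prkag2 -0.26, adjusted p = 0.174). Farther out, Prkag2os1, 2900005J15Rik, 4831440E17Rik and 1700096K18Rik had means of 0.0267 to 0.573 CPM.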

How the data were processed

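RNA sequencing of Total, Light and Heavy RNA gave 18 libraries in 6 groups of 3, grouped by their titles. The authors deposited 1 table of log2 values, log2(CPM + 1), for 19862 genes. STAR, edgeR and the build mm10 are named, without versions, per the submitters' processing notes. No source used here gives the read counter or its annotation. Undoing the log2 gave whole reads for 100% of values (within 0.1 of a whole number) and depths of 32.3 to 57.9 M reads. Table columns without a sample numbered 0.

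The 17515 genes above 0 in 3 or more libraries entered 1 limma 3.58.1 fit (R 4.3.3) with a trend, robust variances and 6 group means. A call needed an adjusted p below 0.05 (Benjamini-Hochberg, over all of these genes). The script was tested on simulated data. Tables and figures were made in Python 3.11.15 (pandas 2.3.3, numpy 2.4.6, matplotlib 3.10.9). Coding lengths are the longest in GENCODE M21, and promoter sequence is from RefSeq (GRCm38.p6).

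The members, the lists and the naming rule were chosen with earlier results of these data known. The rule named the members, Prmt1, family genes of at least 1 CPM, up to 4 genes per list with the lowest adjusted p, a few genes fixed by name, the 5 genes most like Galnt11 and its neighbours. Galnt3, Galnt15 and Galntl6 lie below 1 CPM and were named after their values were seen, because they were called. The text prints some of the genes the rule gives. Of the listed genes, 2 are not reported here and were left out of the list counts.

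Alternatives were quantile normalization, median-of-ratios scaling and limma-voom on the recovered reads, a pseudocount of 0.1, other filters, limma without trend, only the libraries compared, replicate blocks and leaving out libraries. Leaving out all knockout libraries numbered 1, merged exon lengths and the block on Heavy and Light libraries alone were chosen after seeing the data. Whether equal numbers pair libraries was checked through the correlation of their departures from group means. It was 0.324 to 0.412 between Heavy and Light controls and 0.276 to 0.603 between Heavy and Light knockouts, above 0 for each number. The correlation between libraries of unequal numbers was not computed, so these values cannot decide whether equal numbers pair libraries. It was 0.4345 to 0.6425 between Total and Light knockouts. Between Total and Heavy libraries it was -0.448 to 0.165 in controls and 0.0609 to 0.510 in knockouts. Total and Light controls gave -0.647 to 0.355. Control and knockout libraries of 1 number and RNA gave -0.453 to 0.557.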

Additional observations from a re-analysis of the deposited data

Results flagged for a closer look

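Differences between the Heavy and the Light change were singled out for Galnt11, Chpf and Prmt1. For Galnt11 the Heavy change was 1.18 higher on the log2(CPM + 1) scale than the Light change, a gap that the added 1 widens at these low levels. It is a description, since the Light change led to the choice of Galnt11. For Chpf, of chondroitin synthesis, the Heavy change was lower by -0.64 (SE 0.15, limma adjusted p = 0.0355), which passed in 10 of 24 alternatives. Its level was 245 ± 17.4 in Heavy control and 157 ± 1.91 CPM in Heavy knockout libraries, and 141 ± 13.1 and 141 ± 3.61 CPM in Light RNA. For Prmt1 the difference was -1.68 (SE 0.30, adjusted p = 0.0194), which passed in 18 of 24 alternatives (adjusted p up to 0.0817). Each has 3 libraries per group.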

How the results depend on the processing

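The printed Galnt11 differences that use Light libraries (knockout against control, Heavy against Light, and the differences between changes) kept their direction under the alternatives run but moved in size. The Light difference was -3.26 after quantile normalization, -3.13 after median-of-ratios scaling, -3.63 with voom and -3.56 with a pseudocount of 0.1 CPM. The Heavy minus Light change was 0.94 with voom and 1.00 with that pseudocount, and the Light minus Total change -0.81 and -0.73 with the 2 scalings. Heavy against Light in control cells was -1.45 (quantile), -1.78 (voom) and -1.77 (pseudocount), and in knockout cells -0.20, -0.84 and -0.76. The other members called lower numbered 2 in Light RNA with median-of-ratios scaling and 0 in Heavy RNA with only the Heavy libraries, where 2976 genes were called against 5061. The Heavy minus Light change was called for 503 genes, and for 152 (quantile), 49 (median-of-ratios), 335 (voom), 785 (no trend), 8 (only the libraries compared) and 1872 (without the knockout libraries numbered 1). With the replicate block within genotype it was called for 668 genes, and for 10 with the block and only the Heavy and Light libraries. Leaving out single libraries gave 7 to 2011. The replicate block by number alone left the Galnt11 changes at -2.41 (Total, adjusted p = 8.63e-09) and -1.77 (Heavy, 5.30e-08), and the genes called at 4718, 6983 and 5124 in Total, Light and Heavy RNA. Control and knockout libraries share only a number. Depth limits Galnt11 most in Heavy knockout libraries, at 28 or 29 reads.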
